A study of Mus musculus with 12 samples.

Results

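Heat shock proteins, J proteins and chaperonin subunits, the protein-folding machinery of the cell, were followed in the paraventricular nucleus of the hypothalamus of adult male mice that had received microRNA mimics or vehicle as zygotes. The members were every gene whose symbol begins with Hsp followed by a family letter (a, b, d, e or h) or a digit, with Dnaja, Dnajb or Dnajc, or with one of the chaperonin symbols Cct2 to Cct8. Of 83 such symbols, 71 reached a mean of at least 1 RPKM (reads per kilobase of transcript, scaled to library size) over the 12 libraries and were tested among 13273 genes. The remaining 12 lay between 0.029 RPKM (Hspb7) and 0.908 RPKM (Hspbap1) and were not tested. Just inside that limit were Dnajc25 with a mean of 1.04 RPKM, Hspb1 with 1.22 RPKM and Hspa1a with 1.29 RPKM. The filter used symbols and mean level over all libraries, and no comparison between groups. The members and lists themselves were chosen with earlier results of these data known.

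Heat shock proteins of the Hsp70 and Hsp90 families bind unfolded or unfinished proteins and release them with ATP. J proteins bring clients to Hsp70 and switch on its ATPase, small heat shock proteins hold clients without ATP, and the ring-shaped cytosolic chaperonin folds actin and tubulin inside its cavity. Some members are induced by heat shock factor 1 (Hsf1) when proteins misfold, and their close relatives are made at all times; the compartments of the secretory pathway and the mitochondrion have members of their own. In the paraventricular nucleus, Hsp90 and its partners also hold the glucocorticoid receptor in the state that binds hormone.

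Zygotes of the hybrid strain C57/Bl6:129S6/SvEvTac were microinjected either with 9 miRIDIAN mimics (miR-375, miR-204, miR-698, miR-32, miR-30c, miR-30a, miR-29c, miR-532-3p and miR-193-5p) at 0.11 ng/uL each, 1 ng/uL in total, in 1X DPBS (the miR group), or with 1X DPBS alone (the PBS group). All embryos were carried by CD1 surrogate dams, and both groups held males of 18 to 20 weeks. One library of poly-A RNA was made from the punched tissue of each animal, with 6 animals in the miR group (libraries 1 to 6) and 6 in the PBS group (libraries 7 to 12). The series calls them biological replicates and does not say which shared a litter, so p-values measure the spread between these animals.

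Depth was 22.8 to 45.2 M reads in miR and 27.6 to 38.2 M reads in PBS. No pair of libraries was as close as counting noise alone would make it (lowest ratio of squared difference to counting variance 2.62). The 7 markers of the paraventricular nucleus (Oxt, Avp, Crh, Trh, Sim1, Otp and Pou3f2) summed to between 1996 and 5170 RPKM in miR and between 2198 and 5795 RPKM in PBS, and none was listed at 0. The PBS animals differed from each other in 5 nuclear-retained noncoding RNAs, whose summed level was 413 to 788 RPKM in PBS libraries 8, 9, 10 and 12 and 141 to 209 RPKM in the other 8 libraries. PBS libraries 7 and 11 also lay among the miR libraries on the first principal component of all tested genes, which held 36.7% of the variance. These libraries matter for several values below, which are given with and without them.

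No member passed an adjusted p of 0.05 between miR and PBS in limma, against a background of 0% of the 13273 tested genes. At an unadjusted p below 0.05, limma called 11 of 71 members (15.5%), where 20.3% of all tested genes were called, so the members were called no more often than genes at large. Of these, 9 had higher values in miR, which is 12.7% of members beside 9.12% of genes, and 2 had lower values, which is 2.82% of members beside 11.1% of genes. Counts of genes called in the role lists below are to be read against these shares. Higher values in miR, at any p, were found for 51 of 71 members (71.8%) and for 52.9% of genes. The median log2 difference, miR minus PBS, was 0.06 over the members and 0.01 over all tested genes. In none of the 71 members did the 6 miR libraries separate completely from the 6 PBS libraries, as they did in 0.482% of genes. In bulk tissue, fewer cells of a type and less RNA per cell cannot be told apart.

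**Figure D1:**
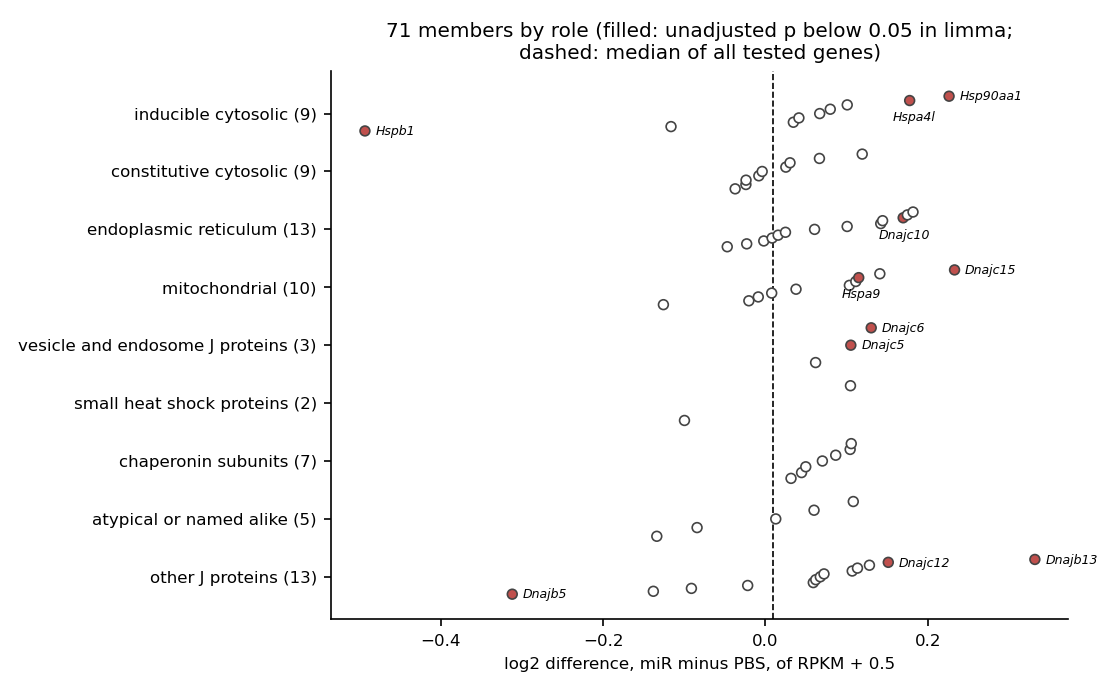
Log2 difference (miR minus PBS, of RPKM + 0.5) on the horizontal axis for each of the 71 tested members, 1 point per member, in rows by role with the number of members in brackets. Filled points mark an unadjusted p below 0.05 in limma, none of which passed adjustment; most points lie between -0.14 and 0.18, and Hspb1 at -0.49 and Dnajb13 at 0.33 stand farthest out.

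Leaving out PBS libraries changed these counts. Without PBS library 11, limma called 2 members at an adjusted p of 0.05, Hsp90aa1 and Hspb1, among 3.23% of all genes. Without PBS library 7 the 2 called were Dnajb5 and Dnajc15, among 6.85% of genes. Without both, 19 members passed (26.8%; 17 higher and 2 lower in miR) beside 23.4% of genes. Library quality weights, which were lowest for PBS libraries 7, 9 and 11, gave 16 members (22.5%) beside 22.8% of genes. PBS libraries 7 and 11 lay among the miR libraries on the first principal component, so leaving them out widens the separation by itself. Calls made without these libraries, here and below, are therefore no separate support for a difference. Without PBS libraries 8, 9, 10 and 12, which keeps only the 2 PBS libraries poor in nuclear noncoding RNA, 1 member was called at an unadjusted p below 0.05 and none after adjustment, and the median of the members was -0.01. With the nuclear noncoding RNA level as a covariate, 2 members were called at an unadjusted p and 27 of 71 had higher values in miR. The part of that RNA in the differences was not tested beyond these fits.

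Cytosolic members spanned the widest range of levels. Hsp90ab1, the constitutive cytosolic Hsp90, was the most abundant member with a mean of 537 RPKM over all libraries, followed by the endoplasmic reticulum proteins Hsp90b1 at 196 RPKM and Hspa5 at 183 RPKM and by Hspa8, the constitutive Hsp70, at 122 RPKM. The stress-inducible Hsp70 genes stood at the other end. Hspa1a averaged 1.29 RPKM and Hspa1b 0.439 RPKM, so that Hspa8 exceeded Hspa1b 278-fold per length. Hspa1a and Hspa1b are near-identical copies, and reads may have been split between them in either direction. Of the inducible list, Hsph1 (Hsp110, an Hsp70 exchange factor) at 80.4 RPKM and Hsp90aa1 at 73.2 RPKM were the highest.

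Hsp90aa1, the inducible cytosolic Hsp90 (chr12:111929246-111934605, minus strand, in the table's coordinates), had the largest difference toward higher values in miR of the inducible list. Its level was 80.4, 83.5, 78.2, 76.7, 83.9 and 70.5 RPKM in miR libraries 1 to 6. In PBS libraries 7 to 12 it was 68.3, 60.9, 64.4, 63.0, 83.0 and 65.96 RPKM. All 6 miR libraries lay above 5 of the 6 PBS libraries, and PBS library 11 lay among the miR libraries, so the groups overlapped through that library. The miR mean was 78.9 ± 4.98 RPKM and the PBS mean 67.6 ± 7.96 RPKM (SD, n = 6 each), a ratio of 1.17 on the scale of RPKM + 0.5. limma estimated a log2 difference of 0.23 (SE 0.07; unadjusted p = 0.0062, adjusted p = 0.17). A 2-sided exact permutation test over all relabelings of the 12 libraries gave p = 0.017, where 0.0022 is the smallest this design allows. As a member, Hsp90aa1 was chosen with earlier results of these data known.

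The value depended on which PBS animals were used. Without PBS library 11 limma gave a log2 difference of 0.29 (adjusted p = 0.034), and without both PBS libraries 7 and 11 it gave 0.31 (adjusted p = 0.0026). Library weights, which were low for PBS libraries 7, 9 and 11 (0.41, 0.45 and 0.46), gave 0.29 (adjusted p = 0.0066). As above, leaving out or down-weighting PBS libraries 7 and 11 widens the separation by itself. Against PBS libraries 7 and 11 alone the difference was 0.06, with p = 0.57 in the exact permutation test. The nuclear noncoding RNA covariate left 0.09 with an unadjusted p of 0.28 in limma. After each library was corrected for its trend with transcript GC content, the difference was 0.13 (unadjusted p = 0.033, adjusted p = 0.37 in limma). The exact permutation p was then 0.067. Hsp90aa1 was thus higher in miR than in the 4 PBS libraries rich in nuclear noncoding RNA, which held 60.9 to 65.96 RPKM, and its difference from the other 2 was within their spread.

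**Figure D2:**
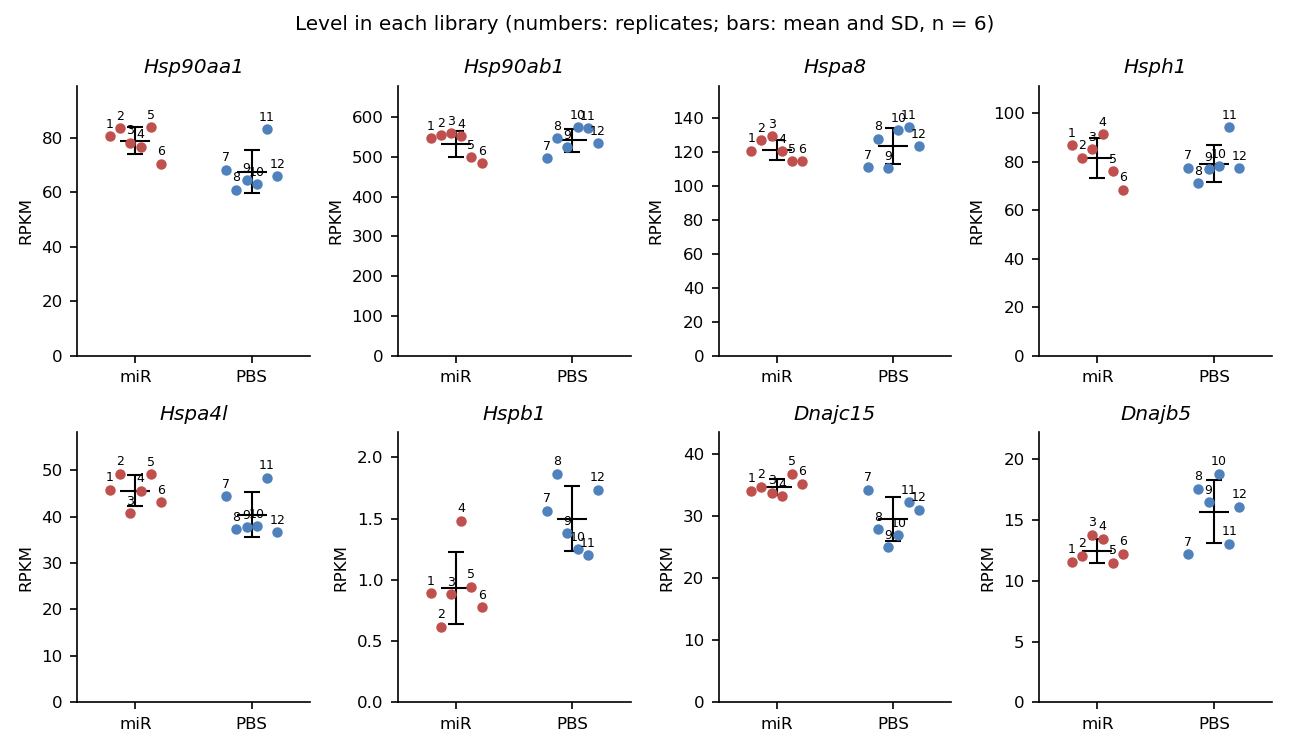
Level in RPKM on the vertical axis in each miR (red) and PBS (blue) library for 8 members, with the replicate number beside each point and bars for the mean and SD of 6 libraries. Hsp90aa1 in PBS library 11 (83.0 RPKM) sits among the miR libraries, while Hsp90ab1 and Hspa8 overlap throughout.

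Hsp90ab1, the constitutive twin of Hsp90aa1, served as the reference within each library. It had a lowest, median and highest level of 485, 549 and 560 RPKM in miR and of 497, 541 and 575 RPKM in PBS, and the groups overlapped over almost their whole range. Its log2 difference was -0.02 (SE 0.06; adjusted p = 0.83 in limma). The mean level of Hsp90ab1 was 7.34 times that of Hsp90aa1. The ratio of Hsp90aa1 to Hsp90ab1 within a library, which does not depend on library scaling, was 13.9% to 16.8% in miR and 10.97% to 14.5% in PBS. Its mean log2 value differed by 0.25 between the groups, with an SD of 0.10 in miR and 0.16 in PBS, by 0.07 without PBS libraries 8, 9, 10 and 12, and by 0.15 after the GC correction of the libraries described below.

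In the other pairs of inducible and constitutive relatives the ratio was compared in the same way. Hsph1 against Hspa4, both Hsp110 exchange factors, had a log2 ratio that differed by -0.08 between groups (SD 0.10 in miR, 0.05 in PBS). For Dnaja1 against Dnaja2, J proteins that hand clients to Hspa8, the difference in log2 ratio was 0.01 (SD 0.04 and 0.09). Dnajb1 against Dnajb6 gave 0.04 (SD 0.15 and 0.17), and 0.17 after the GC correction. Hspa1b against Hspa8 gave -0.15 (SD 0.18 and 0.25) with 0.5 RPKM added to each value and -0.37 (SD 0.46 and 0.50) without, since Hspa1b averages less than the amount added. In these 4 pairs, as computed without the GC correction, the difference was no larger than the SD of at least 1 group.

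Among the 10 genes of the inducible cytosolic list, 9 were tested, 7 had higher values in miR, and the median log2 difference was 0.07. Hspa4l, another Hsp110 protein, had a lowest, median and highest level of 40.7, 45.7 and 49.2 RPKM in miR and of 36.6, 37.8 and 48.3 RPKM in PBS. PBS libraries 7 and 11 reached into the miR range and the other 4 PBS libraries lay below all 6 miR libraries. The log2 difference was 0.18 (SE 0.07; unadjusted p = 0.030, adjusted p = 0.22 in limma). Hsph1 differed by 0.04 (SE 0.08), with PBS library 11 the highest of all libraries at 94.3 RPKM. Dnaja1 and Dnajb1, the classic partners of the cytosolic Hsp70 proteins, differed by 0.08 (SE 0.05) and 0.07 (SE 0.09); Dnaja1 overlaps Mir207 on the same strand, so its value may include reads of that gene.

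Hspb1, the small heat shock protein Hsp27, went the other way. Its level was 0.894, 0.617, 0.882, 1.48, 0.945 and 0.776 RPKM in miR libraries 1 to 6 and 1.56, 1.87, 1.38, 1.25, 1.20 and 1.74 RPKM in PBS libraries 7 to 12. All miR libraries but library 4 lay below every PBS library. The log2 difference of -0.49 (SE 0.13) had the smallest unadjusted p of all members in limma, 0.0019 (adjusted p = 0.17). Without PBS library 11 the gene passed an adjusted p of 0.05, as given above. The gene is rare in this tissue: the library with the lowest value held about 15 reads, and its within-group SD of 0.24 was larger than that of 89.2% of tested genes. Markers of vessel cells moved in the same direction: the 6 endothelial markers summed to 20.5 to 29.3 RPKM in miR and 24.6 to 32.5 RPKM in PBS, and the 6 mural markers to 18.4 to 23.7 and 20.3 to 26.2 RPKM, with no marker at 0 in any library. Their part in the Hspb1 value was not tested. Hspa1a differed by -0.12 (SE 0.11).

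The 9 constitutive cytosolic members had a median log2 difference of -0.004, with 4 higher and 5 lower values in miR and none called at an unadjusted p below 0.05. Hspa8 had a lowest, median and highest level of 114, 121 and 129 RPKM in miR and of 110, 125 and 134 RPKM in PBS. Its groups overlapped fully, with a log2 difference of -0.02 (SE 0.06). Hspa4, the constitutive Hsp110, had the smallest p of this list, with a log2 difference of 0.12 (SE 0.06; adjusted p = 0.26 in limma). Its miR libraries lay between 52.4 and 60.3 RPKM, 5 PBS libraries between 50.3 and 52.7 RPKM, and PBS library 11 at 63.1 RPKM above them all. Dnaja2 differed by 0.07 (SE 0.05). Dnajb6, a J protein that holds back aggregates of polyglutamine proteins and the member of lowest level in the list at 7.75 RPKM, differed by 0.03 (SE 0.06).

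Promoter sequences of members from RefSeq (build GRCm38.p6, from 250 bases before to 50 after the transcript start) were searched on both strands for the heat shock element, the site of Hsf1, and for the ER stress element, the site of the factors that answer misfolding in the endoplasmic reticulum. The heat shock element was searched as the units GAA, TTC and GAA (or TTC, GAA and TTC, which is the same motif on the other strand) with 2 free bases between neighbours, and the ER stress element as CCAAT and CCACG with 9 bases between them. Entries were found for 58 member genes; 13 tested members, among them Hsp90aa1, Hsp90ab1 and Hspa8, had no entry and were not searched. The heat shock element was present in 4 of these genes (Hspd1, Hspe1, Hsph1 and Dnajb6), or 6.90%, and in 0.662% of the 27025 genes of the table. The ER stress element was present in 3 of the 58 (Hspa5, Hsp90b1 and Dnajc3), or 5.17%, and in 0.137% of genes. Counted by promoter, the shares were 0.603% and 0.119% of 32851. A match is a description of letters and not a measured site. The 5 sequences below carry the matches for the mitochondrial pair, the Hsp110 gene and the endoplasmic reticulum proteins described next. Capitals mark the matched motifs, on either strand. The windows are chr1:55087993-55088142 (plus strand) for Hspe1, chr5:149636287-149636316 (minus strand) for Hsph1, chr2:34771940-34772089 (plus strand) for Hspa5, chr10:86705520-86705669 (minus strand) for Hsp90b1 and chr14:118937761-118937910 (plus strand) for Dnajc3.
Hspe1: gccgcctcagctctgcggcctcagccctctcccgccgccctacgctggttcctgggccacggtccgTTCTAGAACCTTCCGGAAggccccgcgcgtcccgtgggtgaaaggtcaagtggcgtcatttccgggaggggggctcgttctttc
Hsph1: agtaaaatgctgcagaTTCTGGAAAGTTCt
Hspa5: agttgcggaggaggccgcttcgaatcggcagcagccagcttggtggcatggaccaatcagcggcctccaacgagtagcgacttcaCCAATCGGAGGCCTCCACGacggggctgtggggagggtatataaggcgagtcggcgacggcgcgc
Hsp90b1: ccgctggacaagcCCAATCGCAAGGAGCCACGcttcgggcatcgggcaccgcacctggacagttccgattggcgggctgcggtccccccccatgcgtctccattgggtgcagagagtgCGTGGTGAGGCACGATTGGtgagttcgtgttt
Dnajc3: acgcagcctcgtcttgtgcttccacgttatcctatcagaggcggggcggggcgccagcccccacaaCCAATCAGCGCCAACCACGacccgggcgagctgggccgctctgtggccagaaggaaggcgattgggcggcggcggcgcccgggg
In Hspe1 the match begins at position -89 from the transcript start, in Hspa5 at -65, in Hsp90b1 at -212 with another match nearer the start, and in Dnajc3 at -105. In Hsph1 it begins 36 bases after the start.

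Of the 13 endoplasmic reticulum members, 10 had higher values in miR (median log2 difference 0.06). At an unadjusted p below 0.05, where limma called 20.3% of all tested genes, 1 of these members was called. That gene was Dnajc10, a J protein that also reduces disulfide bonds, with a lowest, median and highest level of 29.1, 33.7 and 36.3 RPKM in miR and of 26.3, 29.4 and 33.3 RPKM in PBS. The groups overlapped, and the log2 difference was 0.17 (SE 0.07; unadjusted p = 0.024, adjusted p = 0.20 in limma). Hspa13, an Hsp70-like protein of microsomes, differed by 0.18 (SE 0.09). Its highest value among all 12 libraries was PBS library 11 at 34.0 RPKM.

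The 3 genes whose promoters are printed above for the ER stress element are given by library. Hspa5 (BiP), the Hsp70 of the endoplasmic reticulum, was 195, 193, 180, 165, 192 and 177 RPKM in miR libraries 1 to 6 and 165, 192, 172, 166, 221 and 178 RPKM in PBS libraries 7 to 12. Hsp90b1 (Grp94), the Hsp90 of that compartment, was 210, 219, 197, 185, 214 and 191 RPKM in miR and 179, 191, 181, 171, 231 and 183 RPKM in PBS. Dnajc3 (p58IPK), which with BiP restrains the kinase Perk, was 19.2, 19.0, 16.7, 16.5, 18.3 and 19.5 RPKM in miR and 17.3, 16.5, 15.9, 14.2, 21.02 and 14.4 RPKM in PBS. PBS library 11 was the highest of all 12 libraries in all 3 genes, as it was in 8 of the 13 endoplasmic reticulum members and in 20 of all 71 members. The log2 differences between groups were 0.02 (SE 0.07) for Hspa5, 0.10 (SE 0.07) for Hsp90b1 and 0.14 (SE 0.08) for Dnajc3. Dnajc1, the member of lowest level in this list at 3.00 RPKM, differed by -0.02 (SE 0.07).

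Mitochondrial members had a median log2 difference of 0.07, with 7 of 10 values higher in miR. At an unadjusted p below 0.05, 2 of the 10 were called, near the share of 20.3% of all tested genes. Dnajc15, a J protein of the inner membrane import motor, was 34.2, 34.8, 33.8, 33.3, 36.9 and 35.3 RPKM in miR libraries 1 to 6 and 34.3, 27.9, 25.1, 27.0, 32.3 and 31.1 RPKM in PBS libraries 7 to 12. Of the PBS libraries, library 7 alone reached the miR range. The log2 difference was 0.23 (SE 0.07; unadjusted p = 0.0042, adjusted p = 0.17 in limma), and without PBS library 7 the gene passed an adjusted p of 0.05. Hspa9 (mortalin), the Hsp70 of that motor, had a lowest, median and highest level of 64.6, 67.2 and 69.3 RPKM in miR and of 59.7, 60.4 and 68.2 RPKM in PBS. Its groups overlapped through PBS libraries 7 and 11, and its log2 difference was 0.12 (SE 0.04; unadjusted p = 0.019, adjusted p = 0.20 in limma). Its within-group SD of 0.06 was in the lowest 3.13% of tested genes.

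Hspd1 (Hsp60) and Hspe1 (Hsp10) form the mitochondrial folding chamber and its lid, and their genes lie head to head on chromosome 1. The Hspe1 window printed above, read on the other strand, is also the Hspd1 window, and the capitals are a stretch of 18 bases with 2 overlapping matches. Hspd1 was 30.8, 28.9, 29.6, 28.5, 29.8 and 28.1 RPKM in miR and 29.2, 26.0, 24.3, 25.9, 30.6 and 27.8 RPKM in PBS. Hspe1 was 34.7, 34.4, 35.5, 34.7, 33.7 and 37.0 RPKM in miR and 30.1, 32.6, 25.5, 32.6, 34.5 and 35.9 RPKM in PBS. PBS library 9 was the lowest of all libraries in both, and the groups overlapped in both. The log2 differences were 0.10 (SE 0.06; adjusted p = 0.29 in limma) for Hspd1 and 0.14 (SE 0.07; adjusted p = 0.27 in limma) for Hspe1. Dnajc28, the lowest of the list at 4.80 RPKM, differed by 0.11 (SE 0.08).

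All 3 J proteins of vesicles and endosomes had higher values in miR (median log2 difference 0.11). Dnajc5 (cysteine string protein), which keeps synaptic vesicle release proteins folded, had a lowest, median and highest level of 86.6, 92.5 and 95.2 RPKM in miR and of 79.8, 84.6 and 94.7 RPKM in PBS. For Dnajc6 (auxilin), which strips clathrin from vesicles with Hspa8, these were 84.1, 87.1 and 88.8 RPKM in miR and 67.7, 80.8 and 86.3 RPKM in PBS. The groups overlapped in both genes. Their log2 differences were 0.11 (SE 0.05) for Dnajc5 and 0.13 (SE 0.06) for Dnajc6, with adjusted p-values of 0.24 and 0.22 in limma. Dnajc13, an endosomal J protein, differed by 0.06 (SE 0.05).

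The cytosolic chaperonin was described by subunit and as a sum. The 7 tested Cct subunits lay between 57.8 RPKM (Cct4) and 100.3 RPKM (Cct5), in a ring that holds 1 copy of each subunit. All 7 had higher values in miR, by log2 differences of 0.03 to 0.11 with a median of 0.07, and none was called at an unadjusted p below 0.05. Cct8 and Cct6a had the smallest p-values, with log2 differences of 0.10 (SE 0.05) and 0.11 (SE 0.05) and adjusted p-values of 0.26 and 0.29 in limma. Summed over the 7 subunits, the level was 573 to 618 RPKM in miR. In PBS it was 569, 563, 499, 554, 629 and 571 RPKM in libraries 7 to 12, so that the lowest and the highest of all 12 libraries were both PBS animals. Without PBS libraries 8, 9, 10 and 12 the median of the 7 was -0.03. The testis subunit Cct6b was at 0.362 RPKM. Cct6a overlaps the small nucleolar RNA gene Snora15 on the same strand, so its value may include reads of that gene.

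Only 2 of the 6 genes of the small heat shock protein list passed the level filter. Hspb8, which works with Bag3 in selective autophagy, differed by 0.10 (SE 0.08) and Hspb6 by -0.10 (SE 0.08) on the log2 scale, and the groups overlapped in both. In the list of atypical members and genes named alike, 5 of 6 were tested with a median log2 difference of 0.01. Hspa1l, an Hsp70 known from testis, differed by -0.13 (SE 0.09), Hspb11, an intraflagellar transport protein, by 0.11 (SE 0.10), and Hspbp1, an Hsp70 exchange factor, by -0.08 (SE 0.09). None of these was called at an unadjusted p below 0.05.

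Among the 13 other J proteins, 9 had higher values in miR and the median log2 difference was 0.07. Dnajb5, a cytosolic J protein that binds class II histone deacetylases, was 11.5, 12.0, 13.8, 13.4, 11.5 and 12.2 RPKM in miR libraries 1 to 6 and 12.2, 17.5, 16.4, 18.8, 13.0 and 16.1 RPKM in PBS libraries 7 to 12. The groups overlapped through PBS libraries 7 and 11. Its log2 difference was -0.31 (SE 0.10; unadjusted p = 0.0056, adjusted p = 0.17 in limma), and it passed an adjusted p of 0.05 without PBS library 7. Dnajb13, a J protein of the radial spokes of motile cilia, had a lowest, median and highest level of 3.86, 4.81 and 5.64 RPKM in miR and of 3.07, 3.71 and 4.15 RPKM in PBS. The log2 difference was 0.33 (SE 0.10; unadjusted p = 0.0054, adjusted p = 0.17 in limma). The 6 markers of ependymal and choroid plexus cells, summed to 87.9 to 138 RPKM in miR and 85.6 to 129 RPKM in PBS, with none at 0 in all libraries. Their part in the value was not tested. Dnajc12, which serves the aromatic amino acid hydroxylases and was singled out after its value was seen, differed by 0.15 (SE 0.07; unadjusted p = 0.0496, adjusted p = 0.25 in limma). Dnajc27, the highest of the list at 46.0 RPKM, differed by 0.11 (SE 0.06), and Dnajc25, the lowest, by -0.09 (SE 0.10).

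The spread between animals of a group was described for the inducible and constitutive members. The within-group SD of log2(RPKM + 0.5) had a median of 0.14 over the 9 inducible members, 0.10 over the 9 constitutive members and 0.09 over the 7 chaperonin subunits, against 0.12 over all tested genes. After the GC correction of the libraries described below, the inducible median was 0.106 and the constitutive median 0.0890. With 1 library left out, the inducible median lay between 0.108 and 0.145 and the constitutive median between 0.0908 and 0.105. Because low levels are noisier, each member was also set beside genes of similar level. The SD was above the median of its level bin in 6 of 9 inducible members, 1 of 9 constitutive members and 1 of 7 chaperonin subunits. The same held for 7 of 13 endoplasmic reticulum members, 6 of 10 mitochondrial members and 8 of 13 other J proteins. It held for 2 of 2 small heat shock proteins, 3 of 5 atypical members and 0 of 3 vesicle members. Among all 71 members the count was 34, so a high spread was not particular to the inducible list. These are counts without a test. The member of largest SD was Dnajc22 at 0.35, whose lowest library held about 35.4 reads. Hspa2, an Hsp70 best known from the testis, had an SD of 0.24 at a mean of 14.4 RPKM and ranged from 10.3 to 17.8 RPKM within PBS alone. Dnajb3 had an SD of 0.22 and Dnajc17 of 0.21. Dnajb3 overlaps 7 Ugt1a genes on the opposite strand, and its value is uncertain if reads were counted without strand.

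**Figure D3:**
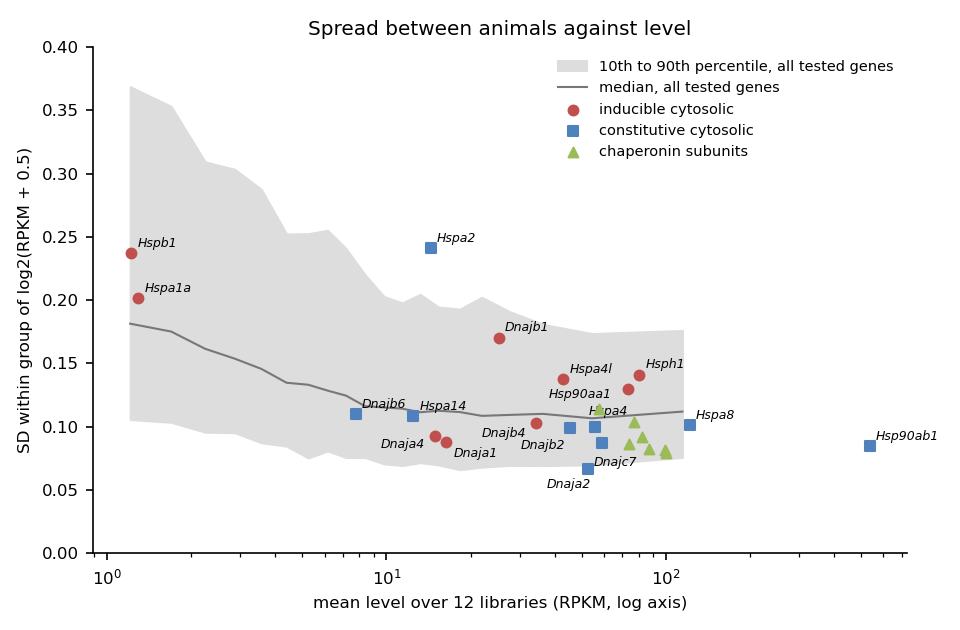
SD within group of log2(RPKM + 0.5), pooled over miR and PBS, on the vertical axis against the mean level over 12 libraries in RPKM on a log axis, for inducible (circles), constitutive (squares) and chaperonin (triangles) members. The grey band spans the 10th to the 90th percentile of all tested genes in bins of level; most circles lie above the line of gene medians, and the squares, apart from Hspa2 at 0.24, lie on or below it.

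Genes whose level followed Hsp90aa1 from animal to animal were sought by Pearson's r of log2 values over the 12 libraries after subtraction of each group's mean. The highest were Mut (r = 0.94), Smc1a (0.94), Slc4a1ap (0.94), Cul2 (0.93), Cdkn1b (0.93), Eif3c (0.92), Sumf1 (0.91) and Dhx9 (0.91). Among members the highest were Hspa4 (0.90), Hsp90b1 (0.84), Dnajc28 (0.83), Hspa4l (0.83), Hspa9 (0.82), Cct8 (0.80), Cct6a (0.79) and Hspd1 (0.76). Of the other 70 members, 56 had an r above the median of all tested genes, which was 0.03. The median of the members was 0.33. Hsp90ab1 and Hspa8 stood at 0.28 each. Of the inducible list besides Hspa4l, Hsph1 stood at 0.70, Hspa1a at 0.10 and Dnajb1 at 0.03. The factor Hsf1, which is not a member, stood at -0.54. These values share the same 12 libraries, with their depth and their outlying animals, and are given as a description.

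The regulators and partners of these chaperones were read from lists that hold no member. Hsf1, the factor that induces heat shock genes, had lower values in miR, at 13.3 ± 1.45 RPKM against 17.5 ± 2.86 RPKM in PBS (SD, n = 6 each). The miR libraries spanned 10.8 to 14.7 RPKM and the PBS libraries 13.2 to 20.5 RPKM, with overlap through PBS library 7. Hsf1 was at 13.2 and 15.4 RPKM in PBS libraries 7 and 11. In PBS libraries 8, 9, 10 and 12, rich in nuclear noncoding RNA, it was at 20.5, 17.2, 18.5 and 20.4 RPKM. Its transcript has 57.4% GC, in a class where genes at large had lower values in miR, as given below. The part of either in the Hsf1 value was not tested. The log2 difference was -0.37 (SE 0.10; unadjusted p = 0.0030, adjusted p = 0.17 in limma). Hsf4, its relative, differed by -0.22 (SE 0.10), so that 2 of 4 tested genes of that list (Hsf1, Hsf2, Hsf4 and the factor-binding protein Hsbp1) were called at an unadjusted p below 0.05, both lower. As above, 20.3% of all tested genes were called at that level, 9.12% higher and 11.1% lower, and the counts of the lists that follow are to be read against these shares. Of the 21 cochaperones of Hsp70 and Hsp90, 4 were called higher and 3 lower, with Sugt1 at 0.21 (SE 0.06) and Ahsa2 at -0.23 (SE 0.07) as those of smallest p. Among 8 chaperonin and prefoldin partners, 7 had higher values, and 2 were called, Tcp1, the remaining subunit of the ring, at 0.13 (SE 0.05) and the prefoldin subunit Vbp1 at 0.14 (SE 0.06).

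Of 18 genes of the endoplasmic reticulum stress response, 6 had higher and 12 lower values in miR, with Ddit3 (Chop) at -0.12 (SE 0.05) and Creld2 at -0.18 (SE 0.08) called at an unadjusted p below 0.05, both lower. The median of that list was -0.03, whereas that of the endoplasmic reticulum chaperones above was 0.06. Among 7 mitochondrial partners Timm44, the anchor of Hspa9 in the import motor, was called lower with a log2 difference of -0.25 (SE 0.07), and Lonp1 differed by -0.12. The alpha crystallin Cryab, a small heat shock protein outside the symbol rule, differed by 0.06 (SE 0.18). None of these passed adjustment in limma.

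Single animals left a mark on many members at once. PBS library 9 had the lowest value of all 12 libraries in 30 of 71 members (42.3%), among them all 7 chaperonin subunits, and in 20.2% of all tested genes. PBS library 11 had the highest value in 20 of 71 members (28.2%), among them 8 of 13 endoplasmic reticulum members and 4 of 7 chaperonin subunits, and in 7.99% of tested genes; it was the lowest in no member and in 2.98% of genes. miR library 2 was highest in 13 members (18.3%) and in 8.66% of genes. PBS library 9 had the highest sum of nuclear noncoding RNAs, 788 RPKM. PBS library 11 had the highest sum of paraventricular nucleus markers, 5795 RPKM, and one of the lowest sums of oligodendrocyte markers, 386 RPKM, where PBS library 7 had the highest, 1397 RPKM. The part of tissue composition in these values was not tested. Immediate early genes, which mark recent neuronal activity, summed to between 25.6 and 233 RPKM without a split by group, and with their mean level as a covariate the log2 difference of Hsp90aa1 was 0.22.

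**Figure D4:**
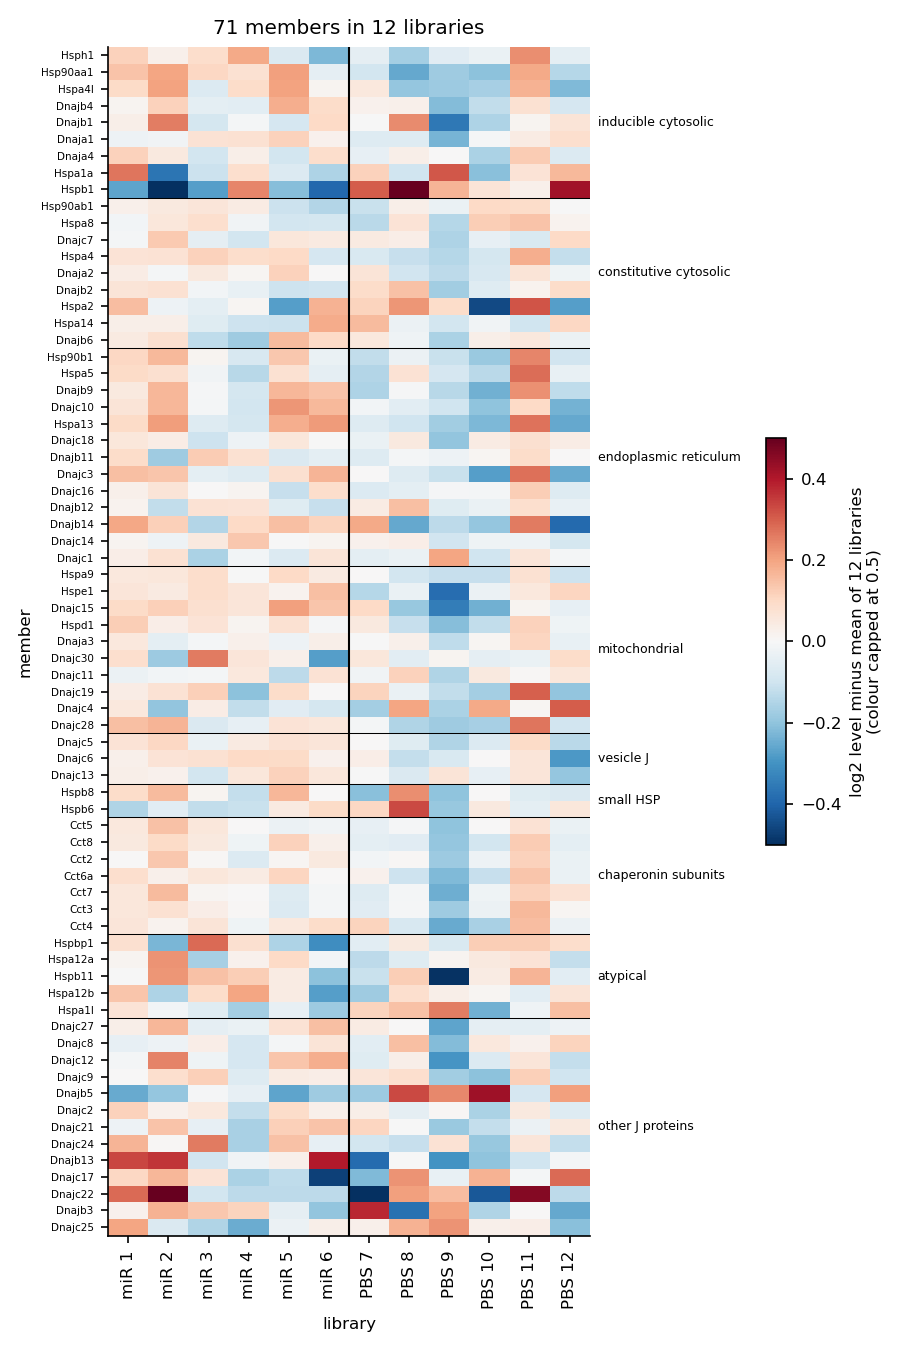
Each row is 1 of the 71 tested members, grouped by role, and each column is 1 library, with colour for the log2 level minus the mean of the 12 libraries, capped at 0.5 in either direction. The column of PBS library 9 is mostly blue (lowest in 30 members) and that of PBS library 11 mostly red (highest in 20).

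The differences of the members followed the GC content of their transcripts, as did those of genes at large. Below 45% GC, all 17 members had higher values in miR (median log2 difference 0.14) beside 0.11 for the 2764 tested genes of that class. Between 45% and 50% GC, 21 of 25 members had higher values, with a median of 0.06 beside 0.06 for genes. At 50% GC and above, 12 of 28 members had higher values, with a median of -0.01 beside -0.06 for genes. Hsp90aa1 (43.7% GC), Hspa4l (39.5%) and Dnajc15 (44.1%) belong to the first class, and Hsp90ab1 (51.0%), Hspa8 (51.2%), Dnajb5 (54.6%) and Hspb1 (60.7%) to the last. With each library corrected for its GC trend, 6 of 71 members were called at an unadjusted p below 0.05, beside 12.1% of genes, and 43 of 71 had higher values in miR. The same correction gave median log2 differences of 0.0222 over all members, 0.0151 over the inducible, 0.0173 over the endoplasmic reticulum, 0.0361 over the mitochondrial and 0.0578 over the vesicle members, 0.00414 over the chaperonin subunits and 0.0127 over the other J proteins, all nearer to 0 than the values above. Farther from 0 than before the correction were the medians of the constitutive members (-0.0235), the small heat shock proteins (0.0545) and the atypical members (0.0225). Whether the trend arose in the tissue or in library preparation was not tested.

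**Figure D5:**
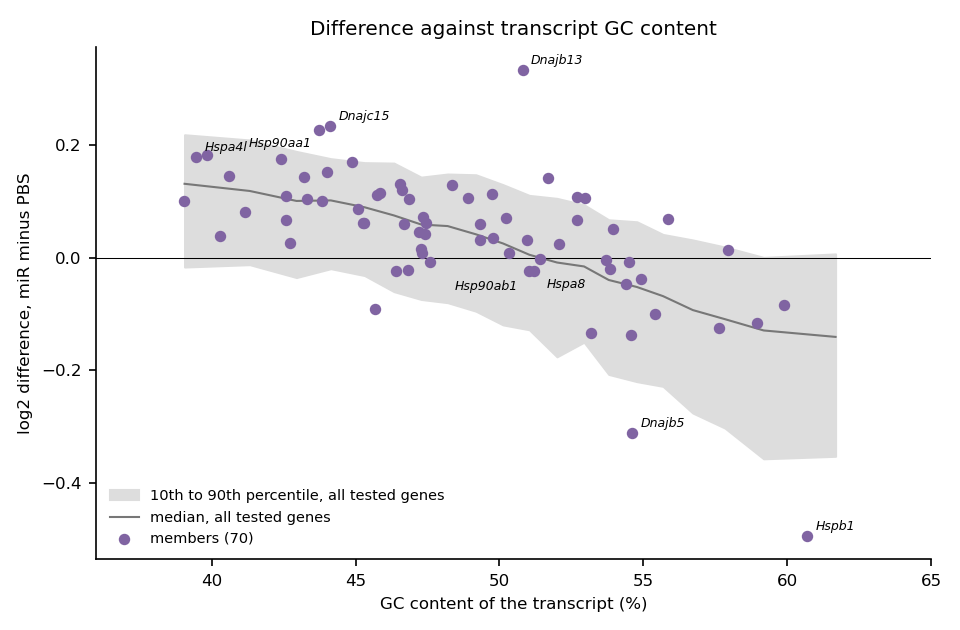
Log2 difference (miR minus PBS) on the vertical axis against the GC content of the transcript in percent, for the 70 tested members with a known value (points), over the median (line) and the 10th to 90th percentile (band) of all tested genes in bins of GC content. Both line and points descend from left to right. Among the members outside the band, Dnajb13 (50.8%), Hsp90aa1 (43.7%) and Dnajc15 (44.1%) lie above it, and Dnajb5 (54.6%) and Hspb1 (60.7%) below it.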

How the data were processed

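Per the labels' protocols, tissue was punched with a 1.0 mm needle from 2 slices of 300 µm; the poly-A kit kept strand and used 250 ng of RNA per animal. The authors deposited RPKM values in 1 table of 30399 transcript rows with 1 column per animal. The submitters' processing notes name mm9 and edgeR, and their part in the values is not stated. Aligner and counter: not given in the sources used here.

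A gene was represented by its row of highest mean (23256 genes, 15 tested members with several rows). One row that only an accession names as a member was left out. Reads of overlapping genes (11 tested members, 2 on the same strand) and near-identical copies were not separated. Depth was estimated from the spacing of the lowest values, and a count model was not used because whole reads could not be restored for all genes. Values were analysed as log2(RPKM + 0.5), which understates changes of low genes, for the 13273 genes averaging 1 RPKM or more. The test was limma 3.58.1 in R 4.3.3 (variance trend, 2-sided, Benjamini-Hochberg adjustment over all tested genes), tested on simulated data first. Lists were described by counts and medians, without a test.

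The members and lists were chosen with earlier results of these data known. Named were 19 members chosen for their role, those of smallest p, highest and lowest level in each role list, the 8 of smallest p among all members, the 5 of largest spread, Hsf1, and the 2 genes of smallest p in each partner list. Dnajc3, Dnajc12 and the single-library values of Dnajb14, Dnajc16 and Dnajc27 were added after their values were seen. GC content came from GENCODE M21 transcripts (98.0% of tested genes) and promoters from RefSeq. Alternatives covered pseudocount, filter, scaling, rows, weights, variance trend, a nuclear noncoding RNA covariate, and libraries left out. The GC correction, the immediate early gene covariate the fit without PBS libraries 8, 9, 10 and 12 and ratios without a pseudocount were added after the data were seen.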

Additional observations from a re-analysis of the deposited data

Results flagged for a closer look

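In 10 of 142 groups of 6 libraries (71 members in miR and in PBS), the highest or lowest library stood apart from the other 5 by a share of the group's range above the critical value of Dixon's test. Chance alone flags about 1 in 20 groups, or 7.1 of 142. In 7 of the 10 the library was PBS 11, and all of those values were high. In that library Hsp90aa1 was at 83.0 RPKM (other PBS libraries 60.9 to 68.3), and Hspa4 was at 63.1 RPKM (50.3 to 52.7). Hsp90b1 reached 231 RPKM there (171 to 191), and Hsph1 reached 94.3 RPKM (71.2 to 78.2). The values of Hspa13 at 34.0 RPKM (23.5 to 26.9), Dnajc28 at 5.85 RPKM (4.16 to 4.74) and Dnajc16 at 17.2 RPKM (15.0 to 15.7) completed that set. PBS library 9 was low in Dnajc27, at 38.1 RPKM (44.3 to 47.2). In the miR group, Hspa4 was low in library 6 at 52.4 RPKM (58.3 to 60.3), and Dnajb14 was low in library 3 at 11.9 RPKM (14.2 to 15.2).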

How the results depend on the processing

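No paired analysis was possible because the groups share no replicate number (1 to 6 in miR, 7 to 12 in PBS). Without both PBS libraries 7 and 11, limma called 3107 genes and 19 members after adjustment. At an unadjusted p below 0.05 it called 28 members (39.4%, 25 higher) beside 37.6% of all tested genes. The groups of 15 members did not overlap, but no share over all genes was computed, so the count says nothing about the members in particular. Leaving out these 2 libraries also makes separation easier. The mitochondrial median was 0.15, and Hsp90aa1 differed by 0.31 (adjusted p 0.0026). Library weights called 3025 genes and 16 members after adjustment. At an unadjusted p they called 25 members (35.2%, 21 higher, 4 lower) beside 38.2% of genes. They gave Hsp90aa1 0.29 (adjusted p 0.0066). Median scaling called 19 members (26.8%) at an unadjusted p, 17 of them higher, beside 22.1% of genes. A filter at 5 RPKM left 1 lower. At an unadjusted p, the nuclear noncoding RNA covariate called 2 members (1 higher, 1 lower) beside 0.979% of genes, and it left 27 higher values. Its medians were -0.0218 for all members, -0.0125 inducible, -0.0298 mitochondrial, 0.0260 vesicle, -0.0254 chaperonin, -0.0804 atypical and -0.0107 other J proteins. Without PBS libraries 8, 9, 10 and 12 (added later), 1 member was called at an unadjusted p (1 higher, 0 lower) beside 0.746% of genes. Higher values were found for 29 members. The groups of 2 members did not overlap, again without a share over all genes. With only 2 PBS libraries left, separation is easy to reach, and this count says nothing about the members. The medians were -0.0114 for all members, -0.0253 inducible, -0.0102 mitochondrial, 0.00347 vesicle and -0.0261 chaperonin. Hsp90aa1 gave an exact permutation p of 0.571 and its ratio to Hsp90ab1 differed by 0.0669. The GC correction (added later) called 6 members (8.45%, 4 higher) at an unadjusted p beside 12.1% of genes. It gave Hsp90aa1 an exact permutation p of 0.0671 and an unadjusted p of 0.033 in limma (adjusted p 0.37). The medians it gave stand with the GC content of the members. With 1 library left out, limma called 0 to 909 genes and 0 to 2 members after adjustment. At an unadjusted p it called 6 to 22 members (4 to 20 higher, 2 to 3 lower) beside 13.1% to 28.4% of genes. The groups of 0 to 2 members did not overlap, again without a share over all genes. Hsp90aa1 differed by 0.20 to 0.29 (exact permutation p 0.0043 to 0.032). Of 1082 comparisons of single members with an alternative, 61 changed sign, in 24 of 42 members. The cause of these changes was not tested. Depth limits Hspb1 most, with about 15.0 reads in its lowest library, followed by Dnajb3 (29.5), Dnajc22 (35.4) and Dnajc17 (61.7).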

Other observations

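Astrocyte markers had higher values in miR in 7 of 7 genes, with sums of 530 to 599 RPKM in miR and 449 to 574 RPKM in PBS. At an unadjusted p below 0.05 limma called 4 of the 7, where it called 20.3% of all tested genes. Microglial markers summed to 78.8 to 98.4 RPKM in miR and 73.3 to 90.7 RPKM in PBS. Of the 12 members under the level filter, Hspb9 averaged 0.662 RPKM, Hspb3 0.312 RPKM, Dnajb8 0.314 RPKM, Dnajc5b 0.231 RPKM, Dnajb7 0.148 RPKM, Hspb2 0.147 RPKM, Dnajc5g 0.099 RPKM and Cct8l1 0.058 RPKM.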
